A study of Mus musculus with 8 samples.

Results

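The cells described here were thymic epithelial cells (TEC) of 16-week-old mice that bound the lectin UEA1 and that carried either much or little of a surface tag raised against Ly6G and Ly6C. Cells were taken as TEC where the transcripts of Epcam, Krt8, Krt18 and Krt5 summed to at least 3 UMIs (unique molecular identifiers, counted RNA molecules) and exceeded the sum of Col1a1, Col1a2, Col3a1 and Dcn. Within each library, TEC above the median of the tag that reports UEA1 were kept, and the cells of the highest and lowest quartile, chosen by their Ly6G/Ly6C tag counts, were called tag-high and tag-low. Of 9953 cells in the series, 6677 came from 16-week-old mice, 4208 of these were TEC, 2103 were UEA1-high, and 1052 fell in the 2 outer quartiles. After drawing equal numbers of tag-high and tag-low cells at each RNA depth, 890 cells remained, 123 tag-high and 123 tag-low in library 1 and 322 and 322 in library 2.

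Thymic stromal cells had been sorted as CD45- Ter119- from C57BL/6 wild-type mice of 1 and 16 weeks, and RNA and antibody-tag counts were read from the same cells. Each age was 1 pool of thymi loaded in 2 wells, so the libraries of an age were technical, and p-values cover capture, sequencing and the choice of cells but not differences between mice. RNA depth was 21281389 UMIs over 1939 cells and 45480790 over 4738 at 16 weeks, and 31917364 over 1846 and 25654110 over 1430 at 1 week. Across the libraries 15 cell barcodes occurred more than once. The matched tag-high and tag-low cells had median depths of 4938 and 4906 UMIs in library 1 and 5482 and 5404.5 in library 2.

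Medullary TEC display self-antigens of many peripheral tissues to developing T cells, in part under the control of Aire, and rare medullary cells take on programs of tuft, microfold, muscle or neuroendocrine cells. Ly6 proteins are small cell-surface proteins held in the membrane by a glycosylphosphatidylinositol (GPI) anchor. Ly6g is best known from neutrophils, Ly6c1 from endothelium and Ly6c2 from monocytes, and Ly6a encodes Sca1. UEA1 is a plant lectin that binds fucose on glycans and marks medullary TEC.

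Because the tags were sequenced rather than stained, each antibody was identified by a short oligonucleotide. The oligonucleotides that defined the cells are shown because every group here rests on them. They are in lower case throughout, as the whole run of 15 bases was read.
Ly6G/Ly6C tag: tagtgtatggacacg
UEA1 tag, read through streptavidin: aacctttgccactgc

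The Ly6G/Ly6C tag was very unevenly spread over UEA1-high TEC. Its median count was 2 per cell in both 16-week libraries, the ninth decile was 9 and 8, and the highest cells held 451 and 2290 counts. Cells with more than 100 counts, 16 of 608 (2.63%) in library 1 and 38 of 1495 (2.54%) in library 2, carried 61.7% and 74.4% of all counts of this tag. The tag-high quartile therefore held mostly cells with a few counts (median 7 and 6) beside a small number above 100, while 71.5% and 77.6% of the matched tag-low cells had none. These counts, once centred, chose the groups and are given as a description. At the border of the upper quartile, the centred log ratio of the tag (log2 of count plus 1, less the cell's mean over the 27 tags) was -1.085 just inside and -1.087 just outside in library 1, and -0.92 and -0.93 in library 2. At the lower border it was -2.551 inside and -2.549 outside in library 1, and -2.288 and -2.287 in library 2.

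Among the transcripts for which the tag is named, Ly6g differed most in UMIs between tag-high and tag-low cells in both 16-week libraries. Tag-high cells held 78 UMIs of Ly6g against 7 in library 1 and 241 against 20 in library 2, which is 76.9 against 6.92 and 82.0 against 6.83 CPM (UMI counts scaled to a common library size). The libraries did not overlap between groups and gave 11.1-fold and 12.0-fold higher levels, with exact Poisson intervals of the log2 ratio from 2.36 to 4.84 and from 2.93 to 4.32. These intervals cover counting error only and treat the UMIs of a cell as independent. The fitted log2 fold change was 3.53 (SE 0.235, n = 2 libraries), with an adjusted p of 0.089 (edgeR quasi-likelihood test with Benjamini-Hochberg adjustment), which missed the threshold of 0.05. The same contrast passed in 11 of 17 alternative settings, among them DESeq2 (adjusted p = 8.9e-06), and ranged in log2 fold change from 0.28, among cells low in the MHC class II tag, to 4.51. Ly6g lies on chromosome 15 from 75155240 to 75159126 on the plus strand (GRCm38, GENCODE vM21).

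Few cells carried the Ly6g signal. At least 1 UMI was found in 12 of 123 tag-high cells (9.76%, exact 95% binomial interval 5.14 to 16.4%) and 7 of 123 tag-low cells (5.69%, 2.32 to 11.4%) in library 1, and in 37 of 322 (11.5%, 8.22 to 15.5%) and 16 of 322 (4.97%, 2.87 to 7.94%) in library 2. A single cell gave 61 of the 78 UMIs in library 1, and without the top cell of each sum 17 UMIs stood against 6. In library 2 the top cell gave 78 of 241 UMIs, and 163 stood against 15 without it. As a background, cells with at least 10 collagen and Dcn UMIs and more of these than of the epithelial transcripts, which should lack the gene, had a Ly6g UMI in 3.24% of 586 and 3.30% of 1426 cells at median depths of 12255 and 10552.5 UMIs. Since these cells were deeper than TEC, their shares cannot be set against those of TEC directly. Per UMI they held 2.76 and 3.21 CPM of Ly6g, below the 6.92 and 6.83 CPM of tag-low cells. TEC low in the UEA1 tag held 21.8 and 14.8 CPM, near the 17.6 and 22.7 CPM of all UEA1-high TEC.

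The Ly6C transcripts showed smaller differences in UMIs. Ly6c1 had 37 UMIs in tag-high and 42 in tag-low cells of library 1, and 160 and 72 in library 2. The libraries thus differed in direction, but without the top cell of each sum 27 UMIs stood against 25 and 99 against 62. The fitted log2 fold change was 0.59 (SE 0.354, edgeR adjusted p = 0.915). Ly6c2 was sparse and higher in both libraries, with 4 against 3 UMIs and 44 against 10, a log2 fold change of 1.63 (SE 0.633, edgeR adjusted p = 0.903). The share of cells with a Ly6c1 UMI was 16.3% against 17.9% in library 1 and 18.0% against 15.8% in library 2. A Ly6c2 UMI was found in 4 against 1 of 123 cells (3.25% against 0.813%) in library 1. In library 2 it was found in 15 against 4 of 322 (4.66% against 1.24%), so its share of cells was higher in both libraries. As Ly6g RNA differed between the groups too, they are named by the tag, Ly6G/Ly6C, and not as Ly6C-high and Ly6C-low cells.

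The promoters of the 3 neighbouring genes are shown because the tag is named for their products and their RNA differed to unequal extents between tag-high and tag-low cells. They are RefSeq sequences of GRCm38.p6, from 250 bases before to 50 after the first of 2 listed starts, and capitals mark matches to TATAAA and GAGGAAGT on either strand.
Ly6g, chr15:75155011-75155310, plus strand: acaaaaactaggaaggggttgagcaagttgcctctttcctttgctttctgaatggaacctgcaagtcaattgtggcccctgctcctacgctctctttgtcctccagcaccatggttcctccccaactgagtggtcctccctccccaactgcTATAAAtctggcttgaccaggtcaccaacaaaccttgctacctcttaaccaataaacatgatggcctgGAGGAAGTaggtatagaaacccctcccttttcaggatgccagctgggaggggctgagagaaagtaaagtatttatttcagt
Ly6c1, chr15:75048788-75049087, minus strand: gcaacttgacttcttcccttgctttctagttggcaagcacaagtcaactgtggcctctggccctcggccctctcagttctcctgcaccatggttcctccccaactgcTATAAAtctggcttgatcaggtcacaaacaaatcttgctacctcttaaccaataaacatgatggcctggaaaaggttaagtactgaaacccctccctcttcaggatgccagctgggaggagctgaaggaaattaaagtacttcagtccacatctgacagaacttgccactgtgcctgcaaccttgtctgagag
Ly6c2, chr15:75111922-75112221, minus strand: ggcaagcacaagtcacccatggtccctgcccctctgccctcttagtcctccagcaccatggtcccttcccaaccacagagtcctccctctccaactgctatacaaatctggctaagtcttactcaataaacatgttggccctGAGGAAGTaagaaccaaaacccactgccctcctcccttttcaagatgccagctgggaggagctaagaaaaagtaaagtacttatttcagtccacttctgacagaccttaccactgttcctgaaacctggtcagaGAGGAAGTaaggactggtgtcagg
Aligned end to end, with overhanging ends left out, the Ly6g and Ly6c1 promoters were identical at 77.6% of 290 positions, Ly6g and Ly6c2 at 72.9% of 262, and Ly6c1 and Ly6c2 at 75.6% of 291. TATAAA, the letters of a TATA box, occurred once in Ly6g and once in Ly6c1 and in 13.6% of 32851 promoters. GAGGAAGT, a sequence of the kind bound by ETS factors such as PU.1, occurred once in Ly6g and in 2 places in Ly6c2, and in 3.20% of all promoters. The 2 motifs do not overlap each other.

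Plotted over all 4 quartiles of the tag, Ly6g stood apart in the highest one. Among all UEA1-high TEC of 16-week library 1, its level was 4.71, 5.16, 4.60 and 61.5 CPM from the lowest to the highest quartile. In library 2 the levels were 5.97, 3.83, 6.27 and 75.9. Ly6c1 in library 1 gave 45.9, 25.2, 38.8 and 29.7, with no order, and in library 2 24.7, 31.2, 28.1 and 63.1.

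**Figure D1:**
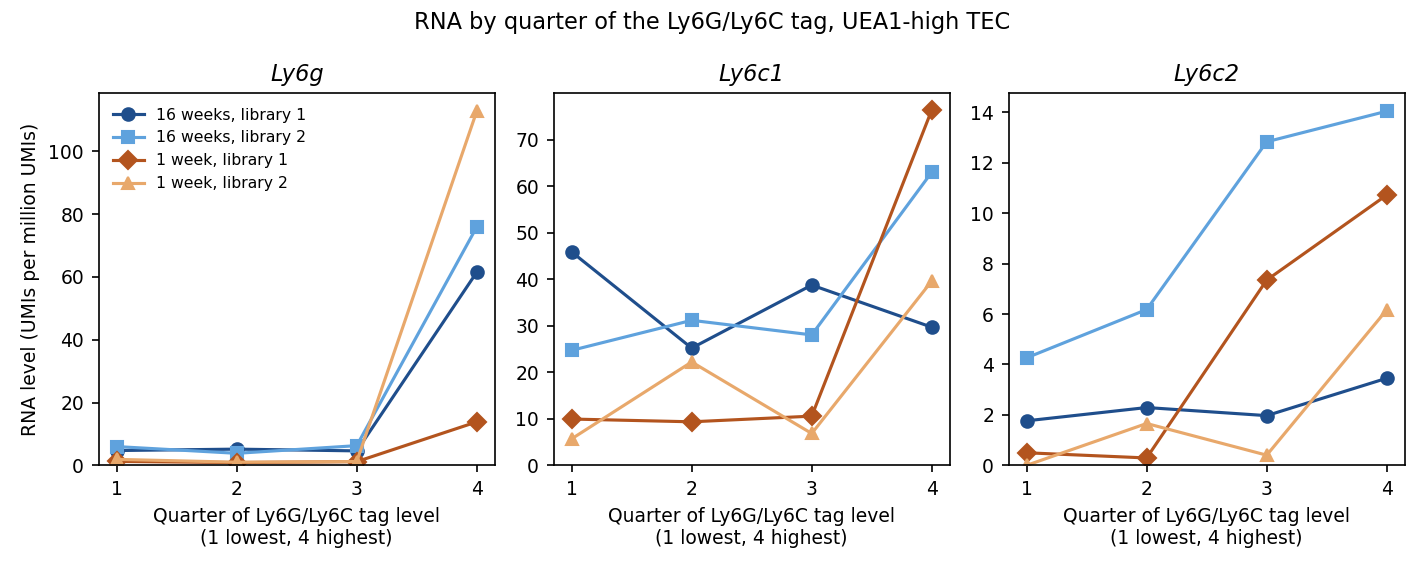
RNA level of Ly6g, Ly6c1 and Ly6c2 in CPM (linear axes that differ between panels) by quartile of the Ly6G/Ly6C tag, for the 2 libraries of each age. Ly6g was near the floor in the lower 3 quartiles and at 61.5 and 75.9 in the highest quartile of the 16-week libraries, while Ly6c1 went from 45.9 in the lowest to 29.7 in the highest quartile of 16-week library 1, from 24.7 to 63.1 in library 2, and from 9.96 to 76.4 and 5.70 to 39.6 at 1 week.

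A finer division, set after the counts had been seen, compared cells with more than 100 tag counts and cells with none. The former held 65 of 113 Ly6g UMIs of UEA1-high TEC in library 1 and 178 of 309 in library 2, so a large part lay in cells with fewer counts. With more than 100 tag counts, 5 of 16 cells (31.2%, exact interval 11.0 to 58.7%) in library 1 and 15 of 38 (39.5%, 24.0 to 56.6%) in library 2 had a Ly6g UMI, at median depths of 5654.5 and 5143 UMIs. With no tag count, 7 of 132 (5.30%) and 17 of 360 (4.72%) did, at 4658.5 and 4205 UMIs. The median total of all tags also differed, at 15467.5 and 10396 counts above 100 and 4285 and 3463 at 0, and its part in these shares was not tested. Levels were 298 and 593 CPM in the former and 5.91 and 7.51 in the latter. In library 1 a single cell with 314 tag counts and 46041 RNA UMIs gave 61 of the 65 Ly6g UMIs above 100 counts. For Ly6c1 the shares were 18.8% and 15.8% with more than 100 counts, and 33 of 132 and 47 of 360 cells had a Ly6c1 UMI with none. For Ly6c2, library 1 had a UMI in 0 of 16 cells above 100 counts (exact interval 0 to 20.6%) and in 2 of 132 without a count (1.52%, 3.37 CPM). In library 2, 5 of 38 cells (13.2%, 73.4 CPM) and 2 of 360 (0.556%, 3.34 CPM) had one. The 16 cells of library 1 were too few to tell the libraries apart. At 1 week a Ly6c2 UMI was found in 2 of 15 and 4 of 16 cells above 100 counts, against 3 of 216 and 0 of 114 without a count. In 8 of 16 (50%, exact interval 24.7 to 75.3%) and 17 of 38 cells (44.7%, 28.6 to 61.7%) above 100 counts at least 1 UMI of Ly6g, Ly6c1 or Ly6c2 was seen, so that in the others none of the 3 was detectable at this depth. Without a tag count, 39 of 132 (29.5%, 21.9 to 38.1%) and 63 of 360 cells (17.5%, 13.7 to 21.8%) had such a UMI.

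**Figure D2:**
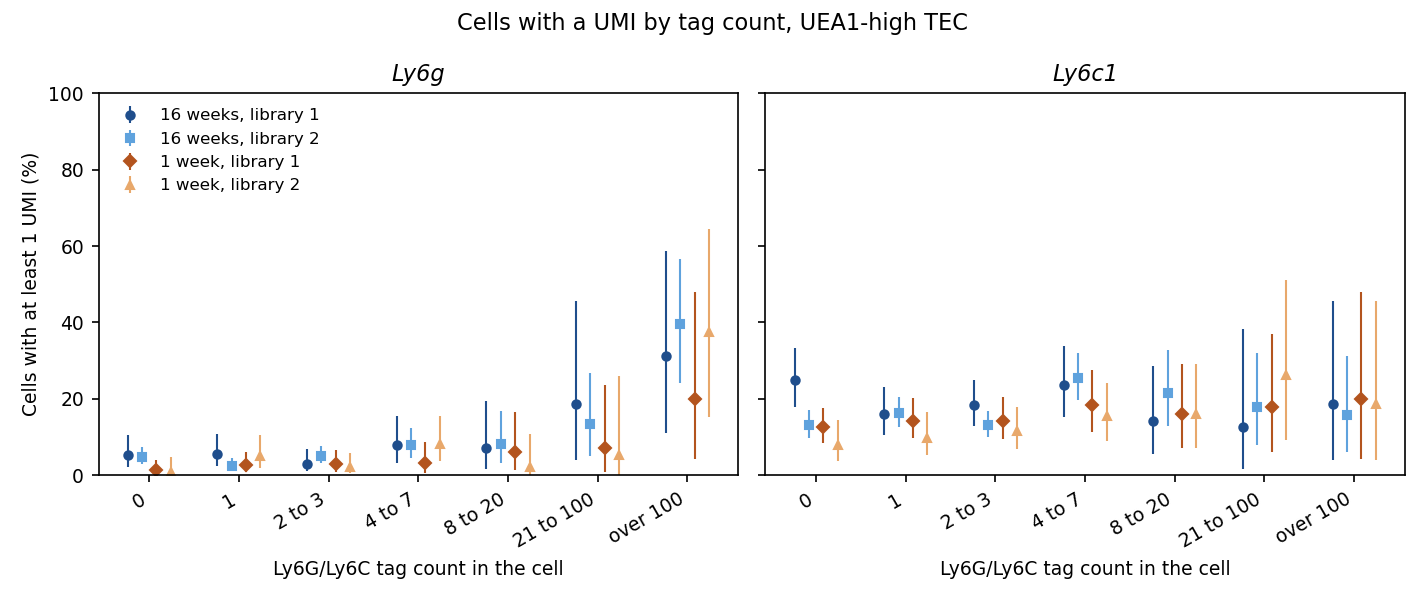
Percentage of UEA1-high TEC with at least 1 UMI of Ly6g (left) or Ly6c1 (right) by the cell's Ly6G/Ly6C tag count, for 4 libraries, with exact 95% binomial intervals that cover counting error only. The Ly6g points are highest above 100 tag counts, at 31.2% and 39.5% in the 16-week libraries, while those of Ly6c1 lie between 12.5% and 25.4% in these libraries at every tag count.

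The cells were also read from the RNA to the tag. UEA1-high TEC with 3 or more Ly6g UMIs, 4 cells in library 1 and 12 in library 2, had median tag counts of 23.5 and 191, against 2 and 1.5 where no Ly6g UMI was seen. TEC with 3 or more Ly6c1 UMIs, 7 and 18 cells, had median tag counts of 4 and 3. For Ly6c2 only 1 cell of library 1 held 3 or more UMIs, with no tag count, and 9 cells of library 2 did, with a median of 5 tag counts, a mean of 393 and 3 of the 9 above 100. These groups also differ in depth, with medians of 18245 and 11624 UMIs for the Ly6g cells and 29206 and 14781.5 for the Ly6c1 cells, against 5372 and 5330 where Ly6g was not seen. Endothelial cells, taken by at least 10 UMIs of endothelial transcripts with under 10 epithelial and under 10 collagen UMIs, held far more Ly6c1, 2013 and 2067 CPM over 81 and 153 cells, and their median tag count was 3 in both libraries.

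Ly6g is a neutrophil transcript, and the sort had removed CD45+ cells. Even so, many matched cells held at least 2 UMIs of 22 haematopoietic markers. Their shares were 65.0% and 73.9% of tag-high and 65.0% and 72.4% of tag-low cells in libraries 1 and 2. In cells with more than 100 tag counts, Csf3r, the receptor for granulocyte colony-stimulating factor, had 0 UMIs in library 1 and 6 UMIs in 1 of 38 cells in library 2, and Itgam, an integrin of myeloid cells, had 0 UMIs in library 1 and 4 UMIs in 4 of 38 cells (10.5%, exact interval 2.94 to 24.8%) in library 2, against 4 of 360 cells (1.11%) without a tag count. Ptprc, which encodes CD45, was found in 1 of 16 and 3 of 38 of these cells. In library 2, Csf3r, Itgam, Ptprc, S100a8, S100a9 and Camp were nevertheless higher above 100 counts than at a count of 0, while Ngp, a granule protein, stood at 3.33 against 3.76 CPM. S100a8 stood at 447 against 149 CPM, S100a9 at 467 against 63.0, Camp at 200.1 against 9.60 and Ptprc at 80.0 against 3.34. In library 1 S100a8, S100a9, Camp and Ptprc were lower, with S100a8 at 110.1 against 150.2 CPM and S100a9 at 9.17 against 81.8. Their part in the Ly6g signal was not tested. Over the whole outer quartiles S100a8, an abundant neutrophil transcript also made by epithelium, had 204 against 186 UMIs in tag-high and tag-low cells of library 1 and 513 against 491 in library 2 (log2 fold change 0.09, SE 0.134, edgeR adjusted p = 0.952). Camp, a granule protein, had 7 against 8 UMIs and 337 against 25, with 72.7% of the 337 in 1 cell. Over the haematopoietic list, 22 markers, the summed level was 964 against 1097 CPM in library 1 and 1041 against 735 in library 2. Without cells that held any UMI of 7 myeloid or leukocyte genes, a setting added after the data had been seen, the log2 fold change of Ly6g was 1.86 with an edgeR adjusted p of 0.596, on 49 and 105 cells a group.

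Across the Ly6 and uPAR family, 29 of 30 listed genes were in the table and 25 reached 20 UMIs over the 4 sums. None of the 25 passed the edgeR test, against 0% of 15440 genes tested, and 5 had an unadjusted p under 0.05 where 845 of all genes (5.47%) did. Of the 25, 5 were higher and 3 lower in both libraries, against a background of 24.1% and 28.3% of all genes. Beside Ly6g, Ly6g6c, of the family's cluster in the MHC region of chromosome 17, had 13 against 2 and 69 against 19 UMIs (log2 fold change 2.04, SE 0.417, edgeR adjusted p = 0.742), and its value turned to -1.04 for the upper against the lower 50% of cells. The abundant members gave small differences. Ly6a, encoding Sca1, had 637 against 858 UMIs in library 1 and 2120 against 2690 in library 2, a log2 fold change of -0.39 (SE 0.101, edgeR adjusted p = 0.788). Ly6e had 1049 against 1271 and 3206 against 3656 UMIs, a log2 fold change of -0.24. Ly6d, a keratinocyte and B-cell progenitor antigen, had 193 against 258 and 1605 against 1136 UMIs, so the libraries pointed in opposite directions. Ly6f, Ly6l, Gml and Tex101 fell under the limit on UMIs, and Ly6m was not matched.

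**Figure D3:**
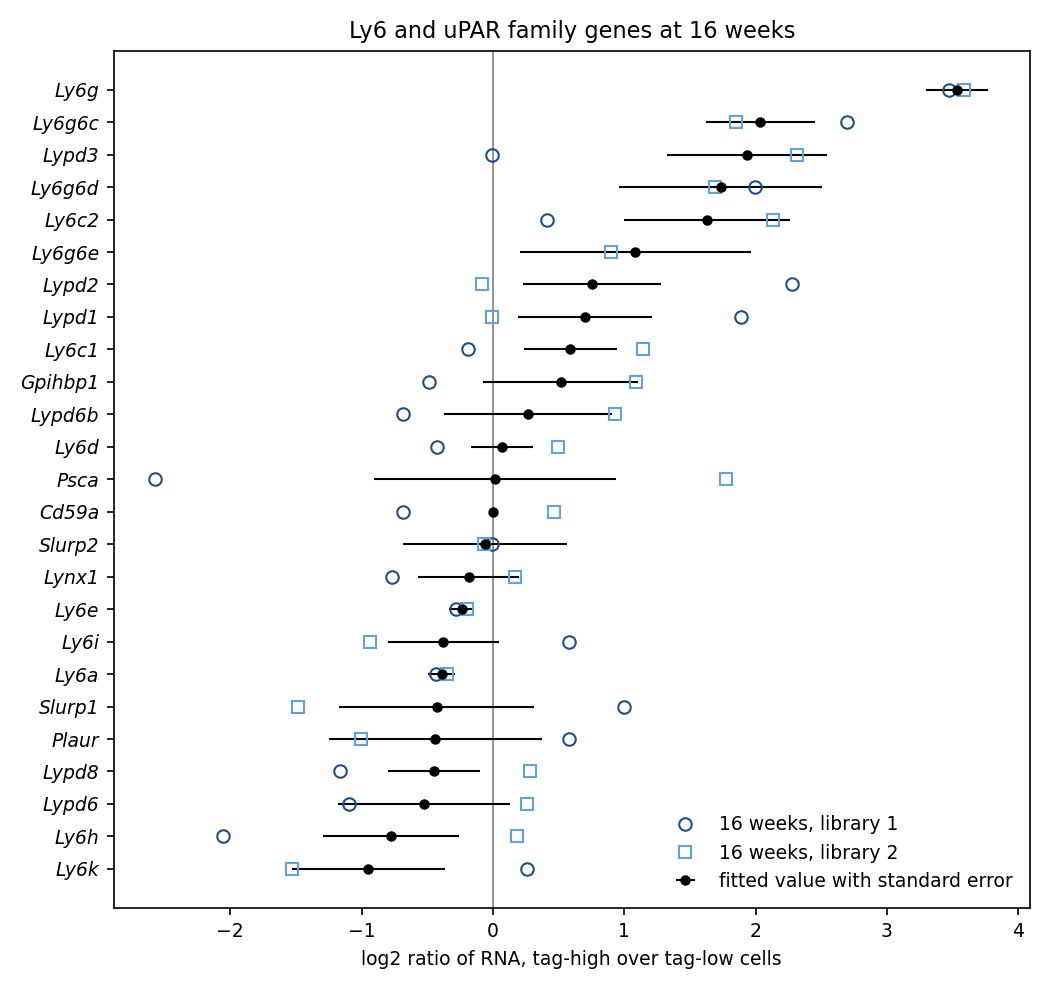
Log2 ratio of RNA in tag-high over tag-low cells at 16 weeks for the 25 tested Ly6 and uPAR family genes, with open symbols for each library and filled points with standard errors for the fit over both. Ly6g has the highest fitted value, 3.53, with both libraries beside it. Cd59a is drawn without an error bar, and a library with 0 UMIs in a group has no symbol.

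Over all genes, the edgeR test on 15440 genes called 0 higher and 0 lower in tag-high cells, with 563 higher (3.65%) and 282 lower (1.83%) at an unadjusted p under 0.05. With DESeq2, 12 genes were called higher and 2 lower. Besides Ly6g, 6 genes had an adjusted p under 0.1, and they are named after their values were seen. Gp2, a glycoprotein of microfold and exocrine cells, had 62 against 5 and 643 against 47 UMIs (log2 fold change 3.73, SE 0.209, edgeR adjusted p = 0.0748). Single cells gave 87.1% and 44.9% of the tag-high Gp2 UMIs, and without the top cells 8 stood against 4 and 354 against 36. Gp2 was seen in 8 against 5 and 23 against 26 cells, and its log2 fold change turned to -0.31 when cells were matched on RNA and tag totals and to -1.10 without cells with a myeloid UMI. Cyp2a5, a cytochrome P450, had 116 against 29 and 1390 against 351 UMIs (log2 fold change 1.98, SE 0.146, edgeR adjusted p = 0.089). Cyp2a5 was also seen in more cells, 27 against 17 of 123 and 76 against 54 of 322, and no tag-high cell gave more than 29.3% of its UMIs. The tag-high cell with the most Cyp2a5 UMIs had a Ly6G/Ly6C tag count of 8 in library 1 and 1 in library 2. The latter cell also gave the most Ccl6 UMIs, and the top Gp2 cells had tag counts of 9 and 4. These cells were tag-high by the centred log ratio. The log2 fold change of Cyp2a5 turned to -0.32 without cells with haematopoietic UMIs, a setting that left 39 and 87 cells a group. Obp1a, Defa21 and Ccl6 also had most of their tag-high UMIs in single cells. One cell gave 99.4% of the 356 UMIs of Obp1a, an odorant-binding protein, in tag-high cells of library 2. For Defa21, an alpha-defensin, 1 cell in each library gave 98.0% and 90.0% of the tag-high UMIs, and for the chemokine Ccl6 84.4% and 61.2%. The value of Ccl6 turned to -0.78 when cells were matched on RNA and tag totals. Fabp3, a fatty-acid-binding protein of muscle, was the lower gene, with 13 against 97 and 18 against 156 UMIs, of which single tag-low cells gave 92.8% and 73.7%, and its log2 fold change turned to 2.20 with the UEA1 tag in its top quartile.

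The lists of TEC subsets and peripheral programs were read as counts and medians. None of their members passed the edgeR test at 16 weeks, and the median log2 fold change of all genes was -0.0022. Over all genes, 24.1% were higher and 28.3% lower in both libraries, and the counts of each list are to be read against these shares. Of 19 mature medullary genes, 3 were higher and 7 lower in both libraries, with a median of -0.12 and summed levels of 26132 against 28990 and 24542 against 24257 CPM. Intertypical TEC genes (13) had a median of -0.19 and 6 lower in both libraries, and cortical genes (11) a median of -0.45 and 3 lower. The intertypical sum was 9951 against 8771 CPM in library 1 and 9909 against 14190 in library 2, and the cortical sum 1514 against 1803 and 1819 against 2404. Aire, named here after its values were seen, gave 504 and 493 CPM in the lowest and highest tag quartile of library 1 and 503 and 591 in library 2. In the division by tag count, however, Aire stood at 628 against 436 CPM above 100 counts and at 0 in library 1 (13 of 16 against 74 of 132 cells) and at 1294 against 472 in library 2 (36 of 38 against 233 of 360 cells). At 1 week it stood at 443 against 44.3 and 275 against 44.8 CPM. Ccl21a, a chemokine of intertypical TEC, was lower above 100 counts, at 5082 against 7971 CPM in library 1 and 1314 against 6634 in library 2.

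Tuft-cell genes lay mostly on the higher side in tag-high cells. Of 15 tested, 9 were higher in both libraries, against 24.1% of all genes, none was lower, and the median was 0.91. Ltc4s, leukotriene C4 synthase, had 109 against 50 and 210 against 137 UMIs and was seen in 39 against 33 and 100 against 85 cells (log2 fold change 0.84, SE 0.204, edgeR adjusted p = 0.759). Avil, the actin-binding advillin, had 104 against 16 and 171 against 104 UMIs, with 10 against 12 and 25 against 23 cells. Its higher UMIs thus came from a like number of cells. The summed tuft level was 885 against 256 CPM in library 1 and 459 against 422 in library 2.

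Against the same 24.1% higher and 28.3% lower of all genes, microfold genes had a median of 0.59 with 7 of 13 higher in both libraries and 2 lower, keratinocyte genes 0.60 with 5 of 13 higher and 1 lower, and gut and liver genes 0.38 with 7 of 15 higher and 4 lower. Neuroendocrine genes had a median of 0.19 with 5 of 10 higher and 0 lower, and ciliated and ionocyte genes 0.75 with 3 of 6 higher. Airway secretory genes had a median of -0.46 with 3 of 11 higher and 5 lower. Summed levels of library 1 ran the other way for microfold (1637 against 1795 CPM), keratinocyte (235 against 307), gut and liver (832 against 988) and neuroendocrine genes (820 against 1001), where library 2 had 3733 against 2231, 1610 against 663, 565 against 521 and 729 against 492. The airway sum was higher in both libraries, 1595 against 1278 and 1803 against 1213 CPM. Reg3g of this list, an antimicrobial lectin, had 704 against 382 and 2066 against 836 UMIs (log2 fold change 1.09, SE 0.144, edgeR adjusted p = 0.451), and stood at -0.046 without cells with haematopoietic UMIs.

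The muscle and cell-cycle lists had medians below 0. Of 10 muscle genes 5 were lower and 0 higher in both libraries, with a median of -1.49. One tag-low cell of library 2 gave 96.6% of the 232 UMIs of the myosin light chain Myl1, against 9 in tag-high cells, and without the top cells 8 UMIs stood against 8. The summed muscle level was 327 against 197 CPM in library 1, the other direction, and 185 against 491 in library 2. Acta1, skeletal actin, had 0 UMIs in both groups of library 1. Of 14 cell-cycle genes 7 were lower and 1 higher in both libraries, against 28.3% and 24.1% of all genes, with a median of -0.82. Stmn1 had 41 against 70 and 238 against 564 UMIs (log2 fold change -1.07, SE 0.191, edgeR adjusted p = 0.72), and Top2a 59 against 95 and 95 against 354 (-1.36, SE 0.319, edgeR adjusted p = 0.759). Both were seen in similar numbers of cells, 33 against 36 and 95 against 99 for Stmn1, whose log2 fold change turned to 0.52 without cells with haematopoietic UMIs.

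Response genes and the machinery of the antigens had medians near 0. The interferon list had 36 genes, 5 higher and 16 lower in both libraries where 24.1% and 28.3% of all genes were, with a median of -0.17. MHC class I genes (16) had a median of -0.02, NF-kappaB targets (19) 0.22, and immediate early and heat-shock genes (16) 0.11. GPI anchor genes (26), which act on every Ly6 protein, had a median of -0.05 with 3 higher and 10 lower in both libraries. Fucosyltransferase genes (10), which add fucose to glycans, had a median of 0.16. Genes that encode the tagged proteins (25) had a median of 0.08. Among cells other than TEC, fibroblast (8), mural (6), endothelial (9) and red blood cell (4) markers had medians of 0.01, 0.01, 0.48 and 0.39, and haematopoietic markers (18) 0.60. Summed endothelial levels were 71 against 69 and 124 against 126 CPM.

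**Figure D4:**
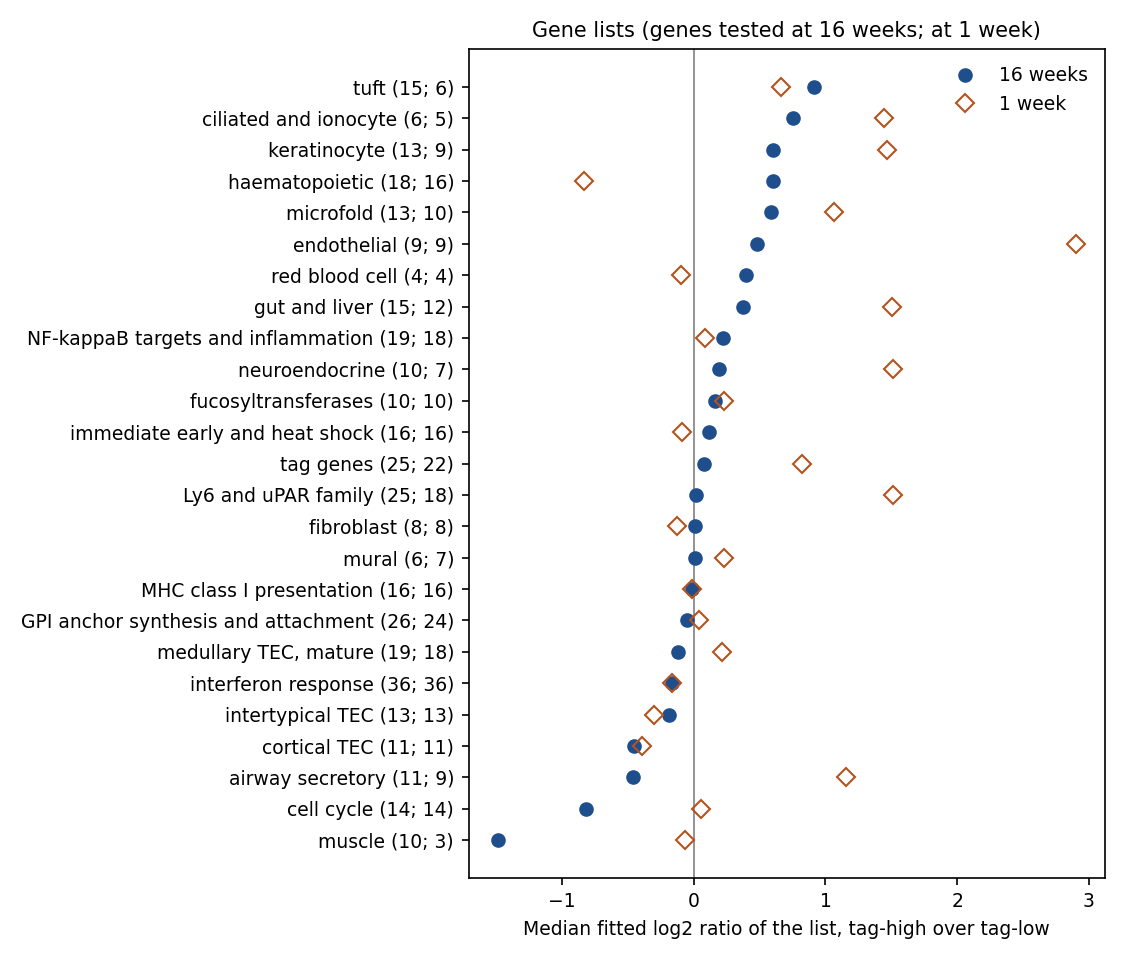
Median fitted log2 ratio of each gene list in tag-high over tag-low cells at 16 weeks (filled) and 1 week (open), with the numbers of genes tested at each age in brackets. The pair Ly6c1 and Ly6c2, with medians of 1.11 at 16 weeks and 3.67 at 1 week, is not drawn. Among the lists drawn, the tuft list is highest at 0.91 and the muscle list lowest at -1.49 at 16 weeks, and the endothelial list is highest at 2.90 at 1 week.

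The 1-week pool, which played no part in choosing the 16-week cells, was divided by the same rule into 506 cells, 151 tag-high and 151 tag-low in library 1 and the rest, again in equal numbers, in library 2. Ly6g was higher in tag-high cells there as well, with 33 against 5 and 108 against 4 UMIs, a log2 fold change of 3.85 (SE 0.439, edgeR adjusted p = 0.00378). With no filter on low counts no gene was called at 1 week by edgeR, where 1481 had an unadjusted p under 0.05, and the adjusted p of Ly6g was 0.439. All calls at this age rest on that filter. In library 2, 94.4% of the 108 UMIs came from 1 cell, and without the top cells 15 UMIs stood against 4 in library 1 and 6 against 3 in library 2. The contrast of Ly6g did not pass a test of the difference between ages (16 minus 1 week, -0.30, SE 0.573, edgeR adjusted p = 0.995). UEA1-high cells of 1-week mice held more cortical RNA, 14901 to 26092 CPM over 11 cortical genes against 1514 to 2404 at 16 weeks, and its part in the differences between ages was not tested.

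At 1 week Ly6c1 and Ly6c2 rose too. Ly6c1 had 161 against 28 and 70 against 12 UMIs (log2 fold change 2.49, SE 0.221, edgeR adjusted p = 0.00101), and Ly6c2 27 against 1 and 9 against 0, at least 2.96-fold higher in library 2 against a floor of 3 counts, with an edgeR adjusted p of 0.0252. The share of cells with a Ly6c1 UMI was 14.6% against 15.2% and 13.7% against 10.8%, and 1 cell gave 40.4% and 57.1% of the tag-high UMIs. Of 18 tested family members 6 were called higher and 0 lower, Ly6c1, Ly6c2, Ly6g, Ly6a, Ly6d and Gpihbp1, where 1.83% and 0.18% of 13899 genes were. In library 1 a single cell gave 424 of the 493 tag-high UMIs of Ly6d, leaving 69 against 53 without the top cells, and 70.4% of the 27 of Ly6c2. All 9 endothelial markers tested rose beside them, among them Cdh5, the endothelial cadherin (108 against 8 and 71 against 7 UMIs, log2 fold change 3.52, SE 0.292, edgeR adjusted p = 0.000709), Pecam1 (2.37, SE 0.216, adjusted p = 0.00115) and Egfl7 (2.39, SE 0.221, adjusted p = 0.00124). Gpihbp1, which is both a family member and a capillary marker, had a log2 fold change of 3.84. Single tag-high cells gave 30.6% and 77.5% of the Cdh5 UMIs, and without the top cells 75 stood against 7 and 16 against 6. Summed endothelial levels were 386 against 47 and 270 against 44 CPM, and the part of endothelial RNA in the rise of Ly6c1 was not tested.

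Of 16 haematopoietic markers tested, 4 rose and 2 fell at 1 week, against 1.83% and 0.18% of all genes, and the median of the list was -0.84. S100a8, S100a9, Lyz2 and Fcer1g, transcripts of neutrophils and other myeloid cells, were higher, with log2 fold changes of 1.32, 1.46 and 1.53 for the first 3. Cd3e, of T cells, and Coro1a, of leukocytes in general, were lower. Ccl21a, the chemokine of intertypical and immature medullary TEC, had a log2 fold change of -1.54 (SE 0.125, edgeR adjusted p = 0.000632) and was lower, and Ctsl, the cortical protease cathepsin L, one of -0.56 (SE 0.109, adjusted p = 0.0347). Cyp2a5 and Reg3g rose at this age, by 1.64 (SE 0.237, adjusted p = 0.00892) and 1.16 (SE 0.149, adjusted p = 0.00557).

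In the test of the difference between ages, edgeR called 1 gene of 17390 higher (0.00575%) and 14 lower (0.0805%), that is, with a contrast that was smaller at 16 weeks. Ly6a was the family member among them. Its contrast was -0.39 at 16 weeks and 0.95 at 1 week, a difference of -1.34 (SE 0.184, edgeR adjusted p = 0.0462), with 214 against 120 and 318 against 147 UMIs at 1 week. The difference passed in none of the 7 other fits, and the 16-week value of Ly6a turned to between 0.024 and 0.27 in 3 alternative settings. Ly6c1 did not pass (-1.87, SE 0.439, adjusted p = 0.239).

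The other tags were taken from the same cells and share the centring with the Ly6G/Ly6C tag, so their differences are given with no test. Sca1, the protein of Ly6a, was the lowest at 16 weeks in library 1 and in the mean of both libraries, with a centred log ratio -0.90 and -0.57 in tag-high less tag-low cells (mean -0.74, SD 0.24) and mean counts of 239 against 429 and 187 against 278. The Ly6a RNA had a log2 fold change of -0.39 at that age. At 1 week the Sca1 tag differed by 0.25 and -0.09 and the Ly6a RNA by 0.80 and 1.10 in the same libraries. CD9 (-0.69 and -0.55) and CD63 (-0.60 and -0.61), both tetraspanins, CD200 (-0.45 and -0.40) and podoplanin (-0.34 and -0.50) were lower too, and podoplanin was lower by more at 1 week (-0.93 and -1.32). CD80, a costimulatory protein of mature medullary TEC, was higher by 0.45 and 0.17 at 16 weeks (0.40 and 0.047 scaled to total tags, with mean counts of 30.5 against 31.1 in library 2) and by 1.08 and 1.35 at 1 week, and the MHC class II tag was higher by 0.36 and 0.22 at 16 weeks and differed by -0.23 and -0.08 at 1 week. UEA1 itself differed by -0.12 and less than 0.01 in size at 16 weeks and by 0.60 and 0.59 at 1 week. The Ly6D tag had mean counts of at most 0.016 per cell in every group at 16 weeks.

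**Figure D5:**
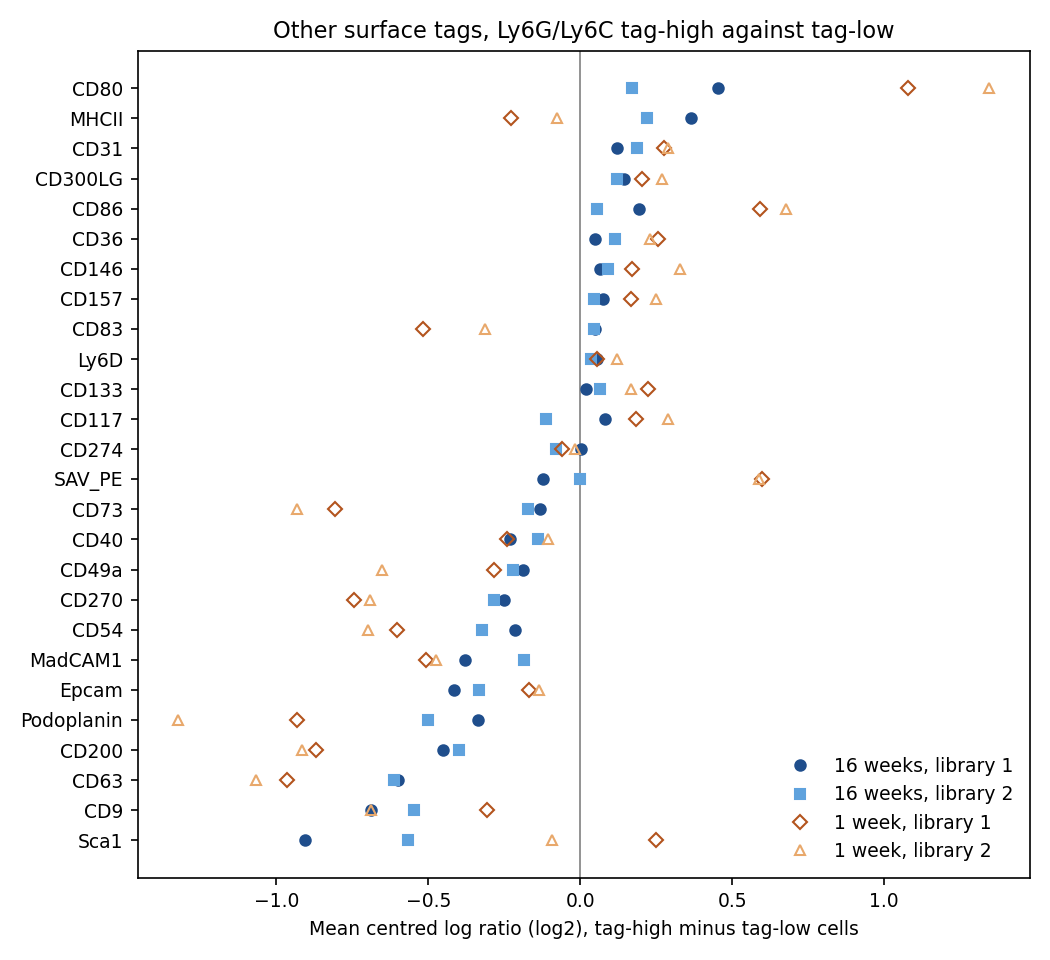
Difference in mean centred log ratio (log2) between tag-high and tag-low cells for the 26 tags other than Ly6G/Ly6C, with 1 symbol for each library. At 16 weeks Sca1 is lowest in library 1, -0.90, and CD63 in library 2, -0.61, and CD80 is highest at 1 week, 1.08 and 1.35.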

How the data were processed

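RNA and antibody-tag libraries of 2 wells at each age were deposited by the authors as 2 tables of raw counts, whole UMI counts per gene and tag counts per antibody, over cells with at least 2000 UMIs. The authors aligned reads to mm10 with STARsolo 2.7.9a. Labels name version 2 and the methods version 3 of the 3-prime kit. Gene IDs were matched to symbols for 55141 of 55487 rows, and positions are from GENCODE vM21. Tag counts were centred per cell as log2(count + 1). Tag-high and tag-low cells were drawn in bins of 0.25 log2 UMIs, summed per library and tested in edgeR 4.0.16 (quasi-likelihood, TMM, library as block, genes with at least 20 UMIs), with DESeq2 1.42.0 as an alternative, in R 4.3.3. The same fit served 1 week, and an interaction the ages. On simulated 16-week sums edgeR recovered 96 of 100 genes changed by 2 and 26 of 100 changed by 1 on the log2 scale, with 6 false calls among 15088 genes. The changed genes held at least 100 UMIs, and all genes were drawn at a common dispersion, with no single cell giving most UMIs of a sum. These rates therefore cannot be carried over to the measured sums. Levels are CPM over TMM-scaled library sizes for the matched sums and over plain totals for quartiles and tag-count bins. Scrublet called 5 and 0 cells at 16 weeks, which is too few, so doublets were kept and a rate-based removal was an alternative. Library number blocks the groups since tag-high and tag-low cells share a well, and it pairs nothing between ages. All lists of markers and genes, and the cells themselves, were chosen with earlier results of these data known. Family members with 20 UMIs and up to 4 members of each list with the most UMIs are named, and others are marked as chosen after their values were seen.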

Additional observations from a re-analysis of the deposited data

Results flagged for a closer look

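The contrast of Ly6a between tag-high and tag-low cells differed between the ages by -1.34 on the log2 scale (edgeR adjusted p = 0.0462), being -0.39 at 16 weeks and 0.95 at 1 week. It kept its direction in the 7 other fits of that difference and passed in none of them, with adjusted p-values from 0.0648 to 0.803. Plvap, an endothelial diaphragm protein, differed by -3.44 (edgeR adjusted p = 0.0462), and Resp18, a neuroendocrine secretory protein, by -2.82 (edgeR adjusted p = 0.0467), each lost in 6 of 7 other fits. Plvap had 55 against 172 UMIs in 16-week library 2, 40.7% of the 172 in 1 cell, and 101 against 18 in 1-week library 1. Resp18 had 166 against 110 UMIs in 16-week library 1 and 64 against 8 in 1-week library 1.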

How the results depend on the processing

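At 16 weeks edgeR called 0 genes higher and 0 lower, and the counts depended on how cells were drawn and scaled. They were 7 and 1 with DESeq2 size factors, 12 and 2 with DESeq2, 8 and 0 with another seed, 34 and 14 with each cell thinned to 2000 UMIs, 51 and 17 matched on RNA and tag totals, 34 and 7 without matching, 28 and 9 for the upper against the lower 50% of cells, 118 and 12 for the outer deciles, 2 and 2 with the UEA1 tag in its top quartile, and 1 and 0 among cells low in the MHC class II tag. They were 6 and 2 without cells with haematopoietic UMIs, 10 and 3 without predicted doublets, 31 and 9 without shared barcodes, and, in settings added after the data were seen, 1 and 0 without cells with a Ly6g UMI and 10 and 8 without cells with a myeloid UMI. Without the replicate block the counts were 1 and 0 at 16 weeks, 47 and 3 at 1 week (255 and 25 with it), and 0 and 1 for the difference between ages (1 and 14 with it). At 16 weeks the counts stayed at 0 and 0 with tags scaled to the total, among cells high in the MHC class II tag and with no filter on low counts, with 628, 653 and 969 genes at an unadjusted p under 0.05. With no filter 1 week also gave 0 and 0. The difference between ages gave 0 and 5 with DESeq2 size factors, 2 and 36 without matching, and, leaving out each replicate, 0 higher throughout and 0 to 19 lower. The Ly6G/Ly6C tag differed by 2.91 scaled to total tags, against 3.29, and by 3.25 to 3.33 in single libraries. The cause of these shifts was not tested.

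Log2 values that changed direction were, with the UEA1 tag in its top quartile, Ly6c1 -0.51 and Fabp3 2.20, and with thinning Resp18 -0.17. Matching on both totals gave Ly6a 0.055, Gp2 -0.31, Ccl6 -0.78 and Resp18 -0.17, and scaling to total tags gave Ly6d -0.10, Ly6e 0.0040 and Plvap 0.22. The upper against lower 50% gave Ly6d -0.075, Ly6g6c -1.04 and Fabp3 0.33, and the deciles Ly6a 0.27. Without Ly6g cells Ly6a was 0.024, Ly6d -0.36 and Resp18 -0.75, and without myeloid cells Ly6d -0.14, Gp2 -1.10, Plvap 0.15 and Resp18 -1.05. Without haematopoietic UMIs, which left 39 and 87 cells a group in place of 123 and 322 (49 and 105 without myeloid cells), Ly6d was -0.0065, Cyp2a5 -0.32, Reg3g -0.046, Stmn1 0.52 and Plvap 1.15, and without doublets Ly6d -0.062. Without replicate 2 Ly6c1 was -0.19 and Ly6d -0.42 (1.15 and 0.49 without replicate 1), and the age difference of Ly6g ranged from -1.13 to 0.90 when either 1-week replicate was left out. Ly6g had too few UMIs to test without cells with haematopoietic UMIs.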
